A study of Mus musculus with 9 samples.

Results

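Epithelial adhesion and tight junction genes were followed in the lambdoidal junction of the mouse embryo, where the maxillary prominence meets the medial and lateral nasal prominences to form the upper lip and primary palate. The group consisted of 10 genes that were picked by name: Cdh1, Cdh3, Nectin1, Epcam, Ctnnd1, Cldn3, Cldn4, Cldn6, Cldn7 and Ocln. Each was found once among the 54532 genes of the deposited table, and all 10 passed the filter on low counts in every comparison. RNA was measured by bulk RNA-seq in C57BL/6J embryos taken at E10.5, E11.5 or E12.5 (embryonic day), for which the labels name no mutation and no treatment. Each stage had 3 libraries, each made from the pooled tissue of many embryos, so the p-values below measure the spread between pools and not between single embryos. The total count per library was 16581009–20836804.

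Epithelial cells hold to each other through adherens junctions, in which the extracellular parts of cadherins and nectins on neighbouring cells bind, and in which catenins tie the cadherins to the actin skeleton. Tight junctions lie closer to the apical surface, and their claudins and occludin seal the space between the cells. When facial prominences fuse, their surface epithelia meet, adhere into a seam and are then removed from it, and mutations of NECTIN1, CDH1 and CTNND1 are known from people with orofacial clefts.

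E10.5 replicate 3 stood apart from the other E10.5 libraries, and it did so in the genes described here. Over all genes, its log2 difference from replicates 1 and 2 followed GC content (Spearman's rho = −0.546, taken across genes as a description). The summed level of 10 general epithelial markers was 605 CPM in replicate 3, against 371 and 402 CPM in replicates 1 and 2. The sum of 8 mesenchymal markers was 942 CPM in replicate 3, against 1996 and 2002 CPM. Ocln was 1.80 times the mean of the other E10.5 libraries in replicate 3, Epcam 1.68 times, Cdh1 1.66 times, Cldn7 1.59 times, Cdh3 1.51 times and Cldn6 1.501 times. The ratio was 1.13 for Cldn4, 1.11 for Ctnnd1, 0.991 for Cldn3 and 0.914 for Nectin1. For 9 of the 10 genes, all but Ctnnd1, the log2 ratio was above the median of the genes of similar GC content. Whether composition or GC content set these levels was not tested, and the log2 fold changes in E12.5 vs. E10.5 of the 6 genes with the highest ratios are given with and without this library.

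Levels of different genes were compared as CPM per kb of gene length (TMM-scaled library sizes). At E10.5, Cldn6 was the highest of the 10 genes in all 3 libraries, at 63.9 ± 16.3 CPM per kb (mean ± SD, n = 3, as for all means below), and Epcam came next at 54.1 ± 17.4. These ranges overlapped, from 50.8 to 82.2 for Cldn6 and from 41.8 to 74.0 for Epcam. In all 6 libraries of the later stages Epcam was first and Cldn6 second. Their ranges still touched at E11.5 (42.5–46.7 CPM per kb for Epcam and 38.1–43.0 for Cldn6) and were separate at E12.5 (46.8–58.9 and 30.4–34.3). Cldn4, Cdh1 and Cdh3 followed in the middle at E10.5, with 22.8 ± 1.79, 21.4 ± 6.73 and 19.3 ± 4.87 CPM per kb, which their spread does not separate. Cldn7 (16.5 ± 4.77), Cldn3 (10.3 ± 0.512), Nectin1 (8.80 ± 0.497) and Ctnnd1 (4.43 ± 0.316) were lower. The annotation shares 61.2% of the exon bases of Ctnnd1 with another gene, and reads there may not have been counted. Its level per length may thus be too low, and its place among the 10 genes is uncertain. Ocln was the lowest gene in all 9 libraries, at 3.02 ± 1.11 CPM per kb at E10.5 and 2.18 ± 0.495 at E12.5.

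The stages were compared in pairs by edgeR's quasi-likelihood test, with p-values adjusted by Benjamini-Hochberg over all genes tested, and a gene rose or fell when its adjusted p was at most 0.05. DEGs also had to change by 1 or more on the log2 scale. In E11.5 vs. E10.5, 1 of the 10 genes passed (Cldn4, which fell), where 11.8% of all genes passed and 5.58% fell. The log2 fold change was below 0 for 9 of the 10, with a median of −0.27 against −0.03 over all genes, and the libraries of the stages did not overlap for 6 genes, where 36.4% of all genes did not overlap. Without E10.5 replicate 3 the log2 fold change was below 0 for 6 of the 10, with a median of −0.094 (−0.40 without E10.5 replicate 1), and with the GC trend also removed for 5, with a median of 0.0093. In E12.5 vs. E11.5 none of the 10 passed by edgeR's quasi-likelihood test, where 12.2% of all genes passed. There the lowest adjusted p was 0.0737, for Cldn6, while 1 gene had an unadjusted p under 0.05 and DESeq2 called 1 gene. The libraries did not overlap for 3 genes (34.7% of all genes) and the median was −0.04, against 0.02 over all genes. The median turned positive when E12.5 replicate 1 (0.031) or E12.5 replicate 3 (0.025) was left out, and was −0.064 with E11.5 replicate 1 left out and −0.060 with E12.5 replicate 2 left out.

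In E12.5 vs. E10.5, 2 of the 10 passed, Cldn6 downward and Ctnnd1 upward, where 24.6% of all genes passed, 14.0% higher and 10.5% lower. The libraries did not overlap for 4 genes, where 42.1% of all genes did not overlap, and the median was −0.28 against −0.01 over all genes. Without E10.5 replicate 3 the median of the 10 was −0.12, with 6 genes below 0 in place of 8. None of the 10 was a DEG by edgeR in any of the pairs, where DEGs made up 6.07% of all genes in the first pair, 5.10% in the second and 15.0% in the third. At an unadjusted p under 0.05 with the same fold change there were also 0, and DESeq2 called 0, 0 and 1. When the stages were tested together on all 9 libraries, 3 of the 10 passed, namely Cldn6, Ctnnd1 and Cldn7, where 28.3% of all genes passed. The change in the second interval differed from that in the first for 0 of the 10 genes (1.18% of all genes), with a lowest adjusted p of 0.449 for Cldn3 in edgeR's quasi-likelihood test and 0 genes at an unadjusted p under 0.05.

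**Figure D1:**
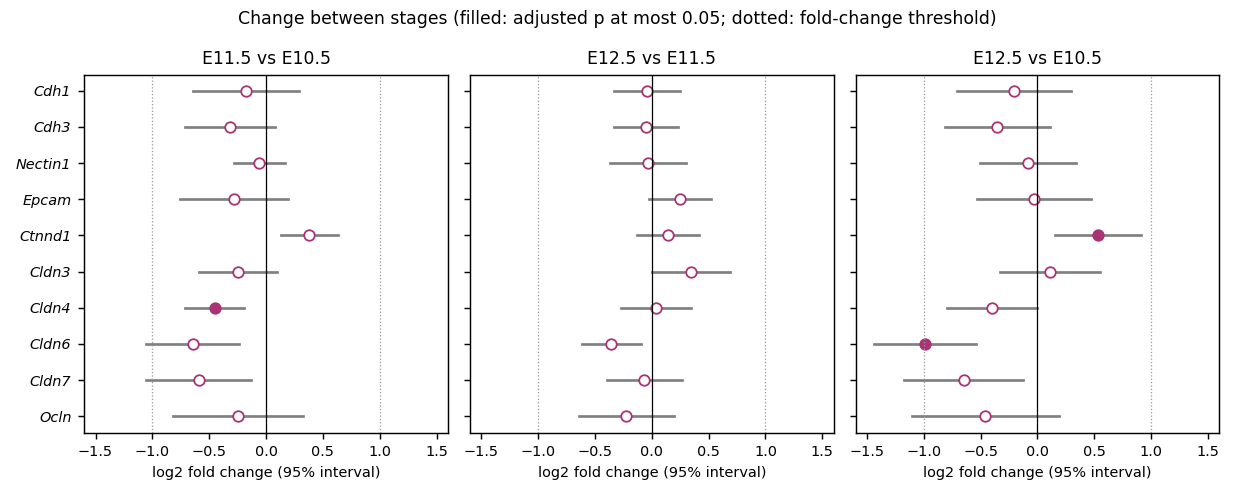
Log2 fold change of each of the 10 genes (x axis) with its 95% interval, in the 3 pairwise comparisons, with the first interval on the left, the second in the middle and E12.5 vs. E10.5 on the right. Filled points have an adjusted p of at most 0.05 in edgeR's quasi-likelihood test and the dotted lines mark the fold-change threshold of the DEGs. The filled points are Cldn4 on the left and Ctnnd1 and Cldn6 on the right, and no point lies beyond a dotted line.

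Cdh1 (ENSMUSG00000000303, GRCm38 chr8:106603351-106670246, plus strand) encodes E-cadherin, the main cadherin of epithelial cells. Its level was 77.1, 83.3 and 133 CPM in the E10.5 libraries, 81.8, 89.3 and 88.1 CPM at E11.5 and 76.5, 98.7 and 77.9 CPM at E12.5. The stages overlapped, and E10.5 replicate 3 lay above all other libraries. The log2 fold change was −0.21 in E12.5 vs. E10.5 (SE 0.23, 95% interval −0.71 to 0.30, adjusted p = 0.551 in edgeR's quasi-likelihood test). Without E10.5 replicate 3 it was 0.09 (adjusted p = 0.736), so the sign rested on that library.

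Cdh3 (ENSMUSG00000061048, chr8:106510891-106557297, plus strand) encodes P-cadherin, which marks the basal layer of stratified epithelia, and lies 46053 bases upstream of Cdh1 on the same strand. It was measured at 69.4, 75.2 and 109 CPM at E10.5, at 66.8, 69.2 and 67.3 CPM at E11.5 and at 69.8, 71.5 and 55.9 CPM at E12.5. The log2 fold change of −0.35 in E12.5 vs. E10.5 did not pass (SE 0.21, 95% interval −0.82 to 0.11, adjusted p = 0.245 in edgeR's quasi-likelihood test), and it was −0.125 without E10.5 replicate 3 (adjusted p = 0.602). The ratio of Cdh3 to Cdh1 per length started at 0.910 in the E10.5 libraries and was 0.819 a day later and 0.814 at E12.5 (geometric means), and its log2 values at E12.5 (−0.42 to −0.07) spanned those of both earlier stages.

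Ctnnd1 (ENSMUSG00000034101, chr2:84600071-84650765, minus strand) encodes p120-catenin, which binds the juxtamembrane part of cadherins and keeps them at the cell surface. Its level was 32.3, 30.1 and 34.8 CPM at E10.5, 42.2, 43.8 and 40.2 CPM at E11.5 and 44.4, 43.7 and 51.9 CPM at E12.5. All later libraries lay above all E10.5 libraries. Ctnnd1 rose in E12.5 vs. E10.5 by 0.53 on the log2 scale (SE 0.17, 95% interval 0.15 to 0.91, adjusted p = 0.0441 in edgeR's quasi-likelihood test), and without E10.5 replicate 3 the value was 0.59 (adjusted p = 0.0217). The call was lost without E10.5 replicate 1 (adjusted p = 0.147), without E10.5 replicate 2 (0.187), without E12.5 replicate 1 (0.111), without E12.5 replicate 3 (0.125) and with no filter on low counts (0.0704). The call of Ctnnd1 over the stages together (adjusted p = 0.0272 in the same test) was lost without E10.5 replicate 1 (0.0890), E10.5 replicate 2 (0.116) or any E11.5 library (0.0549–0.0561) and with no filter on low counts (0.0558). Over the first interval (E11.5 vs. E10.5) the log2 fold change was 0.38 (adjusted p = 0.0616 in the same test). The annotation shares 61.2% of the exon bases of Ctnnd1 with Gm28635 on the same strand, which had no count in any library, so reads in the shared part may not have been counted. p120-catenin is also made outside epithelia. The sum of 8 mesenchymal markers also went up from stage to stage (942–2002 CPM at E10.5, 3387–3806 CPM at E11.5 and 4605–5522 CPM at E12.5). Within E10.5, replicate 3 had the lowest sum (942 CPM) and the highest Ctnnd1 (34.8 CPM). Its log2 ratio to the other E10.5 libraries was 0.15 for Ctnnd1, against a median of 0.19 for genes of similar GC content. The part of these markers in the rise of Ctnnd1 was not tested. In bulk tissue, more cells of a type and more RNA per cell cannot be told apart.

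Nectin1 (ENSMUSG00000032012, chr9:43743984-43807461, plus strand) encodes an immunoglobulin-like adhesion molecule that starts contacts between epithelial cells. The E10.5 libraries had 50.03, 52.4 and 46.8 CPM, the E11.5 libraries 47.1, 47.7 and 48.2 CPM and the E12.5 libraries 54.1, 49.9 and 36.1 CPM. E12.5 replicate 3 was the lowest of the 9 and the other libraries lay within a narrow band. The log2 fold changes of Nectin1 ran from −0.034 in E12.5 vs. E11.5 to −0.082 in E12.5 vs. E10.5 (SE 0.19, 95% interval −0.50 to 0.34, adjusted p = 0.795 in edgeR's quasi-likelihood test).

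Epcam (ENSMUSG00000045394, chr17:87635979-87651106, plus strand) encodes a surface glycoprotein of most simple epithelia, which is known to bind claudin-7 and protect it from degradation. Its level was 85.3, 94.6 and 151 CPM at E10.5, 86.8, 95.4 and 88.8 CPM at E11.5 and 107, 95.4 and 120.2 CPM at E12.5. The E12.5 libraries lay within the range of E10.5 and above those of E11.5, at the closest by only 95.38 against 95.36 CPM. The log2 fold change was 0.25 in E12.5 vs. E11.5 (SE 0.12, 95% interval −0.03 to 0.52, adjusted p = 0.209 in edgeR's quasi-likelihood test) and −0.03 in E12.5 vs. E10.5 (adjusted p = 0.947), and the latter was 0.27 without E10.5 replicate 3 (adjusted p = 0.231). In E12.5 vs. E11.5 a call was made without E12.5 replicate 2 (adjusted p = 0.0423).

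Cldn7 (ENSMUSG00000018569, chr11:69964779-69967885, plus strand) encodes the partner of EPCAM. It was measured at 24.9, 28.7 and 42.6 CPM at E10.5, 21.3, 21.5 and 20.8 CPM at E11.5 and 17.6, 19.2 and 24.2 CPM at E12.5. All E10.5 libraries lay above all later ones, by a small margin for replicate 1. The log2 fold change was −0.65 in E12.5 vs. E10.5 (SE 0.24, 95% interval −1.17 to −0.13, adjusted p = 0.0702 in edgeR's quasi-likelihood test) and −0.39 without E10.5 replicate 3 (adjusted p = 0.147). The call of Cldn7 over the stages together (adjusted p = 0.0398) was lost without E10.5 replicate 3 (0.140), E10.5 replicate 2 (0.0594), any E11.5 library (0.0782–0.0856), E12.5 replicate 1 (0.103) and E12.5 replicate 2 (0.0679). It was also lost with upper quartile normalization (0.0563), with the GC trend removed (0.0647) and with that and E10.5 replicate 3 left out (0.262). The ratio of Epcam to Cldn7 per length went from 3.27 in the E10.5 libraries to 4.06 a day later and to 5.08 at E12.5. Its log2 values did not overlap between the stages (1.66–1.76, 1.96–2.08 and 2.25–2.54), and the E10.5 range includes replicate 3. How often ratios of other gene pairs separate in this way was not computed. The log2 ratio of Cldn6 to Cldn7 overlapped between E10.5 (1.91–1.99) and E11.5 (1.80–1.96). That of Ctnnd1 to Cdh1 overlapped between E11.5 (−1.81 to −1.63) and E12.5 (−1.85 to −1.26). With 3 libraries against 3, an exact permutation test cannot give a p-value under 0.1, and no test of the ratios is given.

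Cldn6 (ENSMUSG00000023906, chr17:23679249-23682446, plus strand) encodes a claudin of embryonic epithelia that is low in most adult tissues. Its level was 87.5, 100.9 and 141 CPM at E10.5, 65.6, 74.0 and 70.6 CPM at E11.5 and 53.5, 52.2 and 59.0 CPM at E12.5. The 3 stages were separate and in order, with every E10.5 library above every E11.5 library and every E11.5 library above every E12.5 library. Cldn6 fell in E12.5 vs. E10.5 to 0.502 of its level, a log2 fold change of −0.99 (SE 0.20, 95% interval −1.44 to −0.54, adjusted p = 0.00529 in edgeR's quasi-likelihood test). The value was −0.77 without E10.5 replicate 3 (adjusted p = 0.00464), and the call was made in all 16 alternatives, in which the log2 fold change lay between −1.15 and −0.74. It was not a DEG at −0.99, and was one in 8 of the 16. Over the first interval (E11.5 vs. E10.5) the log2 fold change was −0.65 (adjusted p = 0.0523), and it was −0.42 without E10.5 replicate 3 (adjusted p = 0.00157). In E12.5 vs. E11.5 it was −0.36 (adjusted p = 0.0737). Neuroepithelial markers also went down: 9 of 9 fell in E12.5 vs. E10.5, where 10.5% of all genes fell. Their sum went from 574–744 CPM to 204–255 CPM at E11.5 and 185–218 CPM at E12.5. The sums of E11.5 and E12.5 overlapped. Of these markers, Sox1 was at 37.7–57.7 CPM at E10.5, 0.215–1.15 CPM at E11.5 and 0.0596–1.92 CPM at E12.5. Their part in the fall of Cldn6 was not tested.

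Cldn4 (ENSMUSG00000047501, chr5:134945119-134946934, minus strand) and Cldn3 (ENSMUSG00000070473, chr5:134986214-134987472, plus strand) encode claudins of many glandular and surface epithelia and lie 39279 bases apart. Cldn4 was at 38.2, 41.2 and 44.7 CPM at E10.5, 28.9, 31.8 and 29.8 CPM at E11.5 and 27.7, 29.7 and 36.0 CPM at E12.5. Every E10.5 library lay above every later one. Cldn4 fell in E11.5 vs. E10.5 by 0.45 on the log2 scale (SE 0.11, 95% interval −0.71 to −0.19, adjusted p = 0.0402 in edgeR's quasi-likelihood test). The call was lost without E10.5 replicate 1 (adjusted p = 0.0584), E10.5 replicate 2 (0.106), E11.5 replicate 1 (0.170), E11.5 replicate 2 (0.108) and E11.5 replicate 3 (0.184), and made without E10.5 replicate 3 (−0.39, 0.00407). It was also lost with no filter on low counts (0.0714), with all 9 libraries in one fit (0.0651), with the GC trend removed (0.0790) and with the replicate block (0.109). Cldn3, which shares 40 exon bases with the antisense gene Wbscr25, was at 12.4, 13.6 and 12.9 CPM at E10.5, 10.4, 12.3 and 10.1 CPM at E11.5 and 15.2, 12.5 and 14.1 CPM at E12.5. It was lowest at E11.5, and its log2 fold change was −0.24 into E11.5 and 0.34 out of it (adjusted p = 0.331 and 0.169 in edgeR's quasi-likelihood test). With the GC trend removed, the log2 fold change of Cldn3 in E12.5 vs. E11.5 was 0.081. The ratio of Cldn4 to Cldn3 per length went from 2.21 in the E10.5 libraries to 1.92 a day later and to 1.55 at E12.5. Its log2 ranges (1.07–1.27, 0.84–1.04 and 0.34–0.83) were separate by small margins, and the ratio was not corrected for GC content. The share of other gene pairs with separate ranges was not computed.

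Ocln (ENSMUSG00000021638, chr13:100496507-100552718, minus strand) encodes occludin, a membrane protein of the tight junction strands. The E10.5 libraries had 10.5, 9.58 and 18.1 CPM, the E11.5 libraries 10.8, 10.4 and 10.96 CPM and the E12.5 libraries 6.82, 10.7 and 10.1 CPM. Replicate 3 of E10.5 was the highest and replicate 1 of E12.5 the lowest, and the other 7 libraries lay between 9.58 and 10.96 CPM. The log2 fold change in E12.5 vs. E10.5 was −0.46 (SE 0.29, 95% interval −1.10 to 0.19, adjusted p = 0.284 in edgeR's quasi-likelihood test), and without E10.5 replicate 3 it was −0.11 (adjusted p = 0.753).

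**Figure D2:**
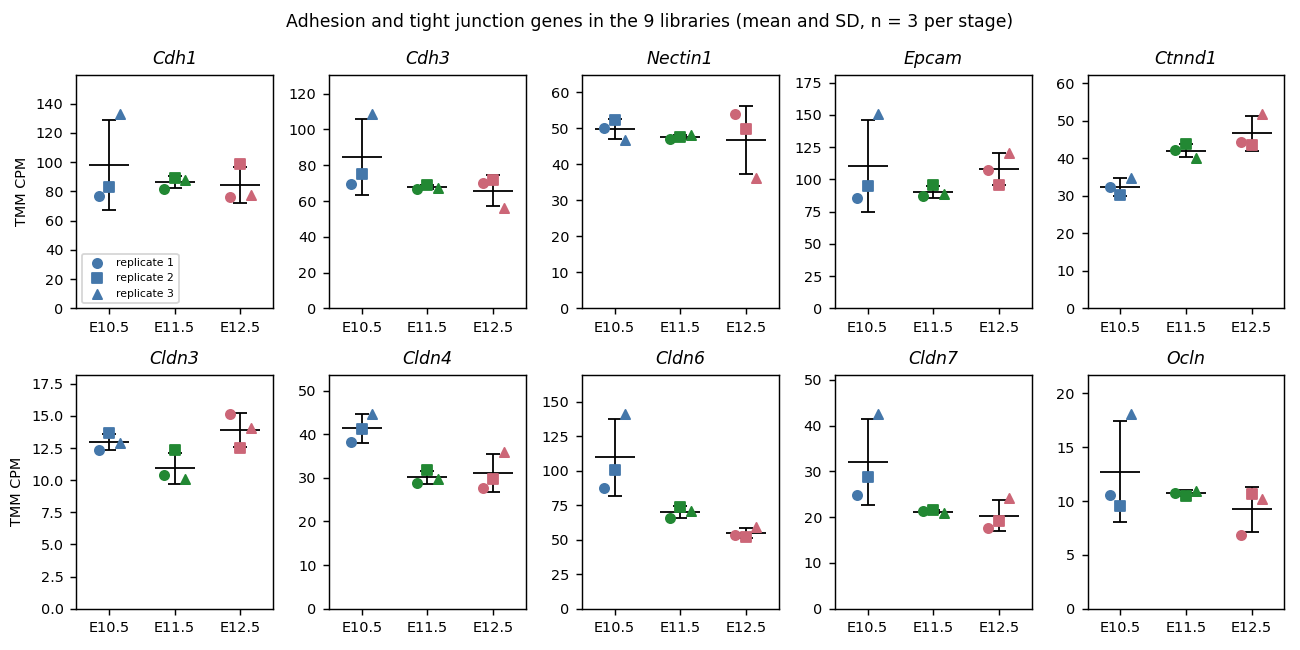
Level of each of the 10 genes in TMM CPM (y axis, from 0) in the libraries of each stage (x axis). Circles, squares and triangles are replicates 1, 2 and 3, and the black bars give the mean and SD (n = 3). In Cdh1, Cdh3, Epcam, Cldn4, Cldn6, Cldn7 and Ocln the triangle at E10.5 is the highest of the 9 points.

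The 4 claudins together measured 113 ± 22.9 CPM per kb at E10.5, against 76.9 ± 4.11 a day later and 70.6 ± 6.25 at E12.5. Cldn6 made up 56.0 ± 2.84% of this sum at E10.5, 53.0 ± 0.928% a day later and 45.3 ± 1.05% at E12.5. The E12.5 share (44.1–46.1%) lay below the shares of both earlier stages (52.1–59.2%). Cldn3 took 9.30 ± 1.68%, 11.3 ± 0.764% and 15.7 ± 1.87%, and its libraries were in order without overlap (7.37–10.4%, 10.5–12.02% and 14.4–17.9%). The margin between E10.5 and E11.5 was small. The shares were not corrected for GC content, which was highest among the 10 genes for Cldn3 (62.7%). The share of Cldn4 was 20.4 ± 2.38% and 24.2 ± 1.49% at E10.5 and E12.5, and that of Cldn7 stayed between 13.4 and 15.99% in all libraries.

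**Figure D3:**
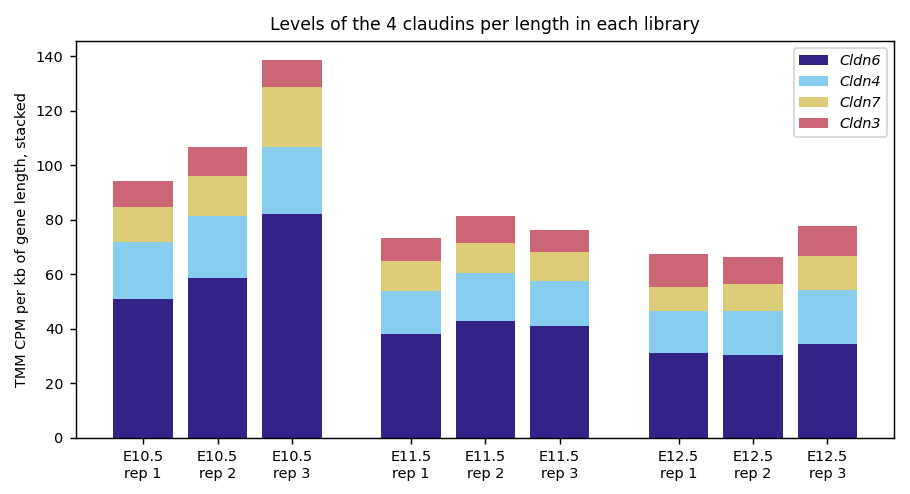
Levels of Cldn6, Cldn4, Cldn7 and Cldn3 in CPM per kb of gene length, stacked from 0 (y axis), for each library (x axis). The dark bars of Cldn6 shrink from 50.8–82.2 at E10.5 to 30.4–34.3 at E12.5, while the red bars of Cldn3 stay between 7.99 and 12.04.

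Promoter sequences are shown for Cldn4 and Cldn6, which fell between a pair of stages, for Cldn3, the neighbour of Cldn4, and for Epcam, the highest gene of the later stages. RefSeq (GRCm38.p6) held start sites for 7 of the 10 genes and none were matched for Cdh1, Cdh3 and Nectin1. The 250 bases before the start site were searched on both strands for ACCGGT, the core of the Grainyhead-like (GRHL) site AACCGGTT, and for CACCTG, the E-box that SNAI and ZEB repressors bind. These motifs do not overlap. Of all 32536 promoter windows of this length 1.86% held ACCGGT, 0.117% AACCGGTT and 17.3% CACCTG. Epcam held 2 of each of the first and the last, at positions −174 and −131 and at −187 and −19 from the start site, and Cldn4 held CACCTG once, at −14. Cldn3 and Ctnnd1 held none of these. Cldn7 (CACCTG at −97 and −57) and Ocln (at −213 and −68) each held it before 1 of their 2 start sites, which lies within the deposited gene. Cldn6 held CACCTG at −93 of its RefSeq start site, which falls within the deposited gene, so only the bases before that gene are printed. A match of letters is a description and not a bound site. In the sequences below, 5′ to 3′ on the strand of the gene, capitals mark ACCGGT and CACCTG on either strand.
Epcam, chr17:87635729-87635978, plus strand: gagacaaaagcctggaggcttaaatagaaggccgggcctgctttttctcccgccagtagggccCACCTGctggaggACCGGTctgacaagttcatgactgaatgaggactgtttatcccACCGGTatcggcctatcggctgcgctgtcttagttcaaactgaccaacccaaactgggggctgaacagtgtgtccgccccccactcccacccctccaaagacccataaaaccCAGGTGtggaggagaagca
Cldn4, chr5:134946935-134947184, minus strand: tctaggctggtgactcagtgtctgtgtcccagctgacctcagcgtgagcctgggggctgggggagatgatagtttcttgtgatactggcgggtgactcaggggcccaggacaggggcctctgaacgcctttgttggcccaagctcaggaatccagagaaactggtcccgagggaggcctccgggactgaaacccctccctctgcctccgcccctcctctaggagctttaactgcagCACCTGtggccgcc
Cldn3, chr5:134985964-134986213, plus strand: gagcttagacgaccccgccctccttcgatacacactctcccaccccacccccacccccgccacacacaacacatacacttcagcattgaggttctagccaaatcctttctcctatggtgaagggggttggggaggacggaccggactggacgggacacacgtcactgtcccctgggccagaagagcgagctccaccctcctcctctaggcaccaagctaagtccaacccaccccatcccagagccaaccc
Cldn6, chr17:23679115-23679248, plus strand: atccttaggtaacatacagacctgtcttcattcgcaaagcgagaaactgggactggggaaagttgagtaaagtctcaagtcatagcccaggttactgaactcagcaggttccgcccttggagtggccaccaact

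The other genes of these junctions were taken from hand-written lists, and their counts are for E12.5 vs. E10.5. For these and the lists further below, the share of all genes was 14.0% that rose and 10.5% that fell. Of 21 other tight junction and apical polarity genes, 0 rose and 7 fell, and the median log2 fold change was −0.44 against −0.01 over all genes. Pard6b, of the apical polarity complex, fell from 21.96 ± 4.10 to 10.2 ± 1.54 CPM, and Cgn (cingulin) from 24.9 ± 4.25 to 13.4 ± 0.550 CPM. Tjp1, which encodes the scaffold ZO-1, went from 196 ± 34.7 to 113 ± 32.0 CPM (log2 fold change −0.78, adjusted p = 0.0310 in edgeR's quasi-likelihood test), a call lost without E10.5 replicate 2, E10.5 replicate 3, E12.5 replicate 1 and E12.5 replicate 3 (adjusted p up to 0.107). Without E10.5 replicate 3 the list had 1 rise and 6 falls and a median of −0.26, and without E12.5 replicate 1 it had 4 falls. Over all genes, 2217 of 16501 fell without E10.5 replicate 3 and 782 of 16411 without E12.5 replicate 1.

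Of 14 other adherens junction and nectin genes, 4 rose and 3 fell. Ctnna2, the neuronal alpha-catenin, rose from 9.06 ± 1.53 to 31.6 ± 4.21 CPM, Cdh11, a mesenchymal cadherin, from 267 ± 42.5 to 505 ± 48.8 CPM and Jup (plakoglobin) from 59.5 ± 5.61 to 102 ± 6.59 CPM. Nectin3 fell from 92.0 ± 24.8 to 46.3 ± 3.68 CPM, Afdn (afadin, which ties nectins to actin) from 163 ± 19.6 to 83.0 ± 21.9 CPM and Arvcf, a relative of Ctnnd1, from 109.9 ± 18.8 to 62.6 ± 5.58 CPM. Each of these 6 passed in all 16 alternatives. Cdh2 (N-cadherin) had a log2 fold change of −0.22 (adjusted p = 0.440 in edgeR's quasi-likelihood test).

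Of 19 other claudins, 10 were tested, 3 rose and 1 fell. Cldn1, the claudin of the epidermis, was at 3.38 ± 1.58 CPM at E10.5 and 8.24 ± 2.32 CPM at E12.5 (log2 fold change 1.29, adjusted p = 0.0260 in edgeR's quasi-likelihood test). Its call was lost without E10.5 replicate 1, E10.5 replicate 2, E12.5 replicate 2 and E12.5 replicate 3 (adjusted p up to 0.0904). Cldn9, whose gene lies tail to tail with Cldn6 on the opposite strand, 137 bases away, was at 6.44 ± 0.531 and 11.9 ± 3.16 CPM (log2 fold change 0.89, adjusted p = 0.0243), and its call was lost without E10.5 replicate 1, E10.5 replicate 2 and E12.5 replicate 3 (adjusted p up to 0.101). The neighbours thus had fold changes of opposite sign. Cldn23 was at 2.48 ± 0.821 and 5.02 ± 0.791 CPM (log2 fold change 1.025, adjusted p = 0.0399 in edgeR's quasi-likelihood test), and its call was lost with the GC trend removed and without each of the 6 libraries except E10.5 replicate 3 (adjusted p up to 0.141). Cldn10 fell from 3.50 ± 0.723 to 1.08 ± 0.0595 CPM. Without E10.5 replicate 1, E10.5 replicate 2 or E12.5 replicate 3 none of the other claudins rose, and without E12.5 replicate 2 only 1 did. Over all genes, 1853 of 16344, 1633 of 16345, 1658 of 16465 and 1919 of 16415 rose without these libraries, in the same order. Spint2, the inhibitor of matriptase, had a log2 fold change of 0.35 (adjusted p = 0.235 in edgeR's quasi-likelihood test).

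Of 12 epithelial transcription and splicing regulators, 4 rose and 0 fell. Grhl1 rose from 1.10 ± 0.216 to 3.65 ± 0.596 CPM, and Ehf, at no more than 1 count in any E10.5 library, was at least 25.7-fold higher at E12.5 when set against a floor of 3 counts per library. The call of Klf5 (log2 fold change 0.77) was lost without any 1 of the libraries except E10.5 replicate 3 (adjusted p up to 0.0928 in edgeR's quasi-likelihood test). Its log2 fold change stayed between 0.68 and 0.825 in the 16 alternatives. Without any 1 of the libraries except E10.5 replicate 3 only 2 genes of the list passed, and without E10.5 replicate 3 there were 5. Over all genes, 2202 of 16411 (without E12.5 replicate 1) to 3608 of 16415 (without E12.5 replicate 2) passed in the former fits. Without E10.5 replicate 3, 4962 of 16501 passed. Grhl2, which is known to activate Cdh1 and Cldn4, had a log2 fold change of −0.60 (adjusted p = 0.134 in edgeR's quasi-likelihood test), Trp63, the regulator of stratified epithelium, −0.14 (0.775) and Esrp1, the epithelial splicing regulator, −0.31 (0.415). For Trp63 and Esrp1 the sign turned without E10.5 replicate 3 (0.37 and 0.04).

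Of 7 repressors of E-cadherin transcription, 3 rose and 1 fell, and these 4 passed in all 16 alternatives. Zeb2 rose from 30.9 ± 5.37 to 158 ± 18.9 CPM, Snai2 from 21.7 ± 1.57 to 85.7 ± 10.97 CPM and Tcf4 from 151 ± 3.35 to 302 ± 48.0 CPM, while Zeb1 fell from 73.6 ± 3.48 to 39.4 ± 8.53 CPM. Of the 8 mesenchymal markers 6 rose, and their part was not tested. Cdh1 itself had the log2 fold change of −0.21 given above.

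Markers of epithelial layers moved in different directions. Of 6 stratified basal markers 5 rose, with a median log2 fold change of 3.55, and Krt5 rose from 2.12 ± 0.431 to 151 ± 2.42 CPM. Itga6, a laminin receptor subunit, fell from 148 ± 25.7 to 83.99 ± 19.5 CPM, a call lost without E12.5 replicate 1 and E12.5 replicate 3 (adjusted p up to 0.0894). Of 10 general epithelial markers 1 rose and 3 fell, with a median of −0.26, or 0.02 without E10.5 replicate 3, and without E12.5 replicate 1 none rose and 1 fell. Over all 16411 genes tested without E12.5 replicate 1, 1420 rose and 782 fell. Krt18 fell from 94.8 ± 29.9 to 46.6 ± 6.32 CPM and Krt8 from 110.5 ± 27.9 to 61.9 ± 7.11 CPM, and their calls were lost without E12.5 replicate 1 (both) and E12.5 replicate 2 (Krt8; adjusted p up to 0.0601). Of 5 periderm markers, the flat cells that cover the embryonic epidermis, 4 rose with every library left out in turn. The 10 junction genes summed to 488–734 CPM at E10.5, 462–495 CPM at E11.5 and 473–485.5 CPM at E12.5.

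**Figure D4:**
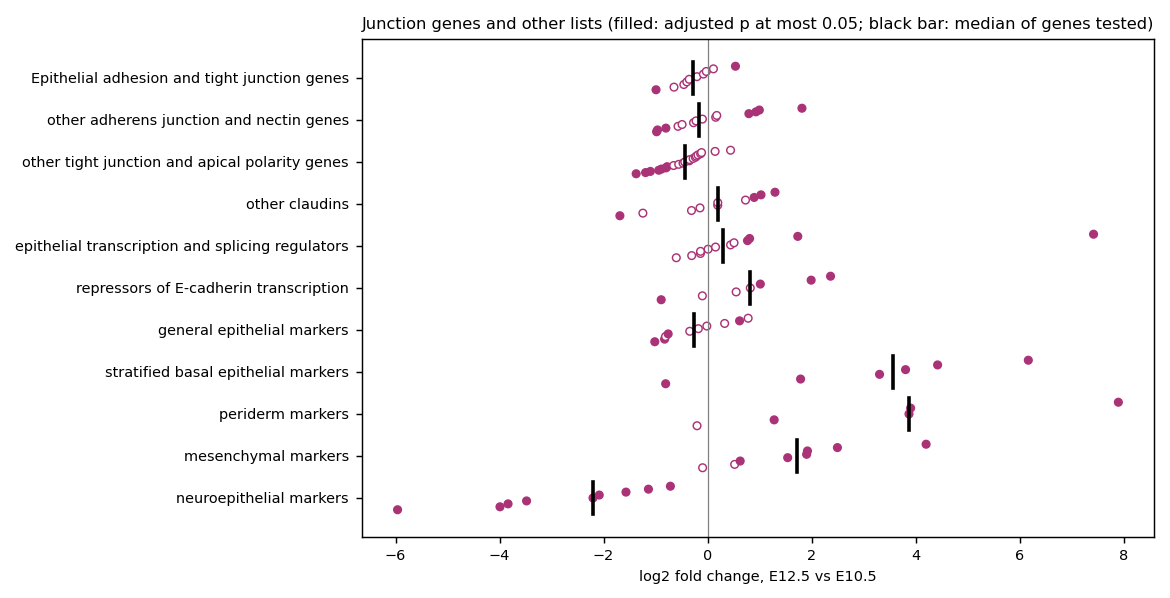
Log2 fold change in E12.5 vs. E10.5 (x axis) of every gene tested in the junction gene group and in 10 other lists (rows), with filled points for an adjusted p of at most 0.05 and a black bar at each median. The junction genes lie between −0.99 and 0.53, while 5 of the 6 basal markers lie to the right of all of them (Itga6 lies at −0.81) and all 9 neuroepithelial markers lie below 0. The fitted values of Ehf and Krt6a depend on the prior count, since their E10.5 libraries had at most 1 count.

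Markers of other cells in the tissue were counted in the same comparison, where 14.0% of all genes rose and 10.5% fell. Without E10.5 replicate 3, 2745 of all 16501 genes rose and 2217 fell. Of 6 neuronal markers 1 rose (2 without E10.5 replicate 3), of 8 erythroid markers 4 rose and 2 fell, and of 6 macrophage markers 1 rose, which was lost without E10.5 replicate 2, E12.5 replicate 1 and E12.5 replicate 3. Of 5 endothelial markers 0 passed by edgeR's quasi-likelihood test, 0 had an unadjusted p under 0.05 and DESeq2 called 0. Their part in the levels of the junction genes was not tested.

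The genes whose log2 CPM followed that of each junction gene most closely over the 9 libraries were drawn from 16375 genes by Pearson's r, as a description. They share the stage differences and E10.5 replicate 3 with it. Pkp2, which encodes the desmosomal plakophilin 2, was the nearest to Cldn6 (r = 0.993), at 14.7 CPM at E10.5, 7.12 CPM at E11.5 and 5.32 CPM at E12.5. Mpp7, a polarity scaffold, was the nearest to Cdh1 (r = 0.979), and Ezr and Cd2ap were among the nearest to Cdh3 (r = 0.976 and 0.970). Vps29 was the nearest to Epcam (r = 0.988) and Thumpd3 to Cldn7 (r = 0.992). Among the 45 pairs of the 10 genes, r was above 0 in 30, with a median of 0.37 and a range of −0.76 (Ctnnd1 and Cldn6) to 0.93 (Cldn6 and Cldn7). The share above 0 was not computed for other gene pairs, which have the stages and E10.5 replicate 3 in common too.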

How the data were processed

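RNA-seq counts were taken for lambdoidal junction tissue of C57BL/6J embryos at 3 stages. Per the labels and the study's methods, HISAT2 2.0.5 (GRCm38/mm10) and featureCounts made the counts. The authors deposited raw counts per gene and library, the gene length, and FPKM values computed by the authors, which served only as an alternative for levels per length. The deposited log2 fold changes, p-values and scores of the authors' own comparisons were not used. How reads were assigned by strand or with several positions is not given in the sources used here. From the counts, CPM used TMM-scaled library sizes (edgeR 4.0.16, R 4.3.3). Each pair of stages was tested on its 6 libraries with filterByExpr, glmQLFit and glmQLFTest, and the procedure was checked on simulated data. Intervals are 95%. The groups follow the labels. The members and lists were chosen with earlier results of these data known. Alternatives were DESeq2 1.42.0, other normalizations and filters, all 9 libraries in one fit, a replicate block, GC trends removed and each library left out. GC removal without E10.5 replicate 3 was added after the data were seen. Genes named from other lists passed in E12.5 vs. E10.5, at most 3 per direction and list with the smallest p, besides 11 fixed names, and some of these are not reported here. The pools of one stage are taken as replicates. The reads carry no molecular identifiers, so the floor of 3 counts covers counting error only.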

Additional observations from a re-analysis of the deposited data

How the results depend on the processing

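Of the counts of genes passing, 97 comparisons of setting and count stayed within 1.5 times and 31 did not. In E11.5 vs. E10.5, where 1 of the 10 genes passed, 2 passed with upper quartile normalization, 2 with DESeq2, 2 with the GC trend removed with the replicate block, 3 with the GC trend removed without E10.5 replicate 3, and 0–4 when a library was left out. The totals moved too, from 1849 of 15708 genes to 1854 of 15708 with upper quartile normalization and 2451 of 28671 with DESeq2. They were 2915 of 15696 with the GC trend removed with the block, and 6061 of 16251 with it removed without E10.5 replicate 3. Leaving out E11.5 replicate 1 gave the fewest, 477 of 16166, and leaving out E10.5 replicate 3 the most, 6447 of 16263 genes. In E12.5 vs. E11.5, where 0 passed, 1 passed with DESeq2, 1 with the GC trend removed and 0–2 when a library was left out. Of all genes 1926 of 15808 passed there, 2454 of 28297 with DESeq2 and 1976 of 15796 with the GC trend removed. With a library left out this ran from 716 of 16241 (E11.5 replicate 2) to 4976 of 16178 (E12.5 replicate 2). In E12.5 vs. E10.5, where 2 passed, 4 passed with all 9 libraries in one fit, 4 with the GC trend removed with the replicate block, and 1–2 when a library was left out. Of all genes 3906 of 15899 passed there, 5429 of 16375 in the one fit and 5900 of 15888 with the GC trend removed with the block. With a library left out this ran from 2202 of 16411 (E12.5 replicate 1) to 4962 of 16501 (E10.5 replicate 3). DEGs there numbered 0, and 1 (Cldn6) with DESeq2 size factors, with DESeq2, with all 9 libraries in one fit, with the GC trend removed, with it and the replicate block, and 0–1 when a library was left out. Over the stages together 3 passed, and 1–4 when a library was left out. Of all genes 4630 of 16375 passed in that test. With a library left out this ran from 3257 of 16812 (E12.5 replicate 1) to 6275 of 16880 (E10.5 replicate 3). The cause was not tested. The labels do not say whether the replicate numbers pair samples by origin. Same-numbered libraries of different stages had correlations of −0.151 to 0.22 of their deviations, and differently numbered ones −0.219 to 0.223. These values cannot exclude a shared origin. With the replicate block 0 of the 10 genes passed in the first pair, 0 in the second and 3 in the third, with 3 over the stages together. Of all genes 1268 of 15708, 2191 of 15808, 4468 of 15899 and 4524 of 16375 passed with the block.

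The sign of a log2 fold change turned for the following genes, none of which passed. In E11.5 vs. E10.5 the range with a library left out was −0.32 to 0.11 for Cdh1 (0.12 with the GC trend also removed), −0.44 to 0.011 for Epcam (0.068) and −0.42 to 0.098 for Ocln. With the GC trend removed without E10.5 replicate 3, Nectin1 was at 0.11 and Cldn3 at 0.064. In E12.5 vs. E11.5 upper quartile normalization gave 0.012 for Cdh1, 0.0043 for Cdh3 and 0.020 for Nectin1, and the range with a library left out was −0.17 to 0.030 for Cdh1, −0.12 to 0.045 for Cdh3, −0.15 to 0.11 for Nectin1, −0.089 to 0.12 for Cldn4 and −0.22 to 0.032 for Cldn7. Cldn4 was at −0.063 with the GC trend removed and −0.074 with the replicate block as well. In E12.5 vs. E10.5 that range was −0.37 to 0.085 for Cdh1, −0.20 to 0.069 for Nectin1, −0.20 to 0.27 for Epcam, −0.38 to 0.37 for Trp63 and −0.50 to 0.036 for Esrp1. Epcam was at 0.041 with upper quartile normalization and 0.013 with the replicate block. With the GC trend removed without E10.5 replicate 3, Cdh1 was at 0.087, Epcam at 0.30, Trp63 at 0.29 and Esrp1 at 0.011. Cldn3 was at −0.13 with the GC trend removed and −0.096 with the replicate block as well. Among the 10 genes, Ocln had the widest 95% interval in E12.5 vs. E10.5 (−1.10 to 0.19) and Ctnnd1 the narrowest (0.15 to 0.91).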
